A study of Homo sapiens with 6 samples.

Results

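The BCL2 family is a set of proteins that decide, at the outer mitochondrial membrane, whether a cell survives or enters apoptosis. The 10 genes described here were chosen by name and found in the first column of the deposited table, each in a single row of the 27238 rows. They fall into 3 guards (BCL2, BCL2L1, MCL1), 2 effectors (BAX, BAK1) and 5 BH3-only genes (BID, BAD, BCL2L11, BBC3, PMAIP1). Guards bind the other members and hold them inactive. Effectors, once released, form pores through which cytochrome c leaves the mitochondrion. BH3-only proteins sense stress and either bind the guards or activate the effectors directly. Cancers of the bile duct are known to lean on MCL1 and BCL2L1 for survival.

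The cells were QBC-939, labelled a human cholangiocarcinoma (bile duct cancer) line. One group received an shRNA against Bmi1 and the control group a scrambled shRNA, both for 48 h, with 3 libraries in each from independent transfections per the design text, which also calls the scrambled reagent an siRNA. Poly(A) RNA was sequenced, and expression was given as FPKM, a fragment count divided by transcript length and by the fragments mapped in that library. Because of the division by length, levels of different genes can be set side by side, though only roughly. The division does not remove differences that go with GC content. Both groups are the same line with no other alteration stated, and the labels name 1 shRNA against Bmi1, without its sequence.

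BMI1, the Polycomb gene that the shRNA targets, was 1.49, 1.19 and 2.65 FPKM in Bmi1 shRNA libraries, against 6.65, 5.34 and 6.09 FPKM in control libraries (log2 fold change -1.37, limma adjusted p = 0.00162). Over all genes, 57.1% of 11016 tested rows passed the adjusted p threshold of 0.05 used here, so a call is common in this comparison. The FPKM of a library summed to 352800 to 360371 in Bmi1 shRNA libraries and to 332910 to 341268 in control libraries, and the depth in reads is unknown. Of 7 bile duct markers, 6 reached 1 FPKM in at least 1 library and 1 in none; their sum was 406 to 460 FPKM in Bmi1 shRNA libraries and 522 to 617 FPKM in control libraries. Fibroblast (3 of 3 in the table) and endothelial (2 of 2) markers were under 1 FPKM in every library. Of 5 hepatocyte markers 4 were under 1 FPKM in every library, and with TTR their sum was 17.7 to 19.7 FPKM in Bmi1 shRNA libraries, against 5.99 to 7.06 FPKM in control libraries. The immune sum, almost all CD68, was 6.78 to 8.39 FPKM in Bmi1 shRNA libraries and 11.1 to 12.1 FPKM in control libraries, and the adipocyte sum was 1.24 to 1.37 FPKM in Bmi1 shRNA libraries and 1.57 to 1.98 FPKM in control libraries. The samples are labelled as a single cell line, so these sums are not read as shares of cell types. The part of these differences in the results was not tested. In bulk RNA, a change in how many cells express a gene and a change in its RNA per cell cannot be told apart.

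Of the 10 genes, 9 reached the mean of 1 FPKM required for testing, and 3 of the 9 (33.3%) passed, against 57.1% of all tested rows. BID and BAD, both BH3-only, were higher with Bmi1 shRNA (22.2% of the 9, against 28.6% of all tested rows called higher). MCL1, a guard, was lower (11.1%, against 28.5%). The other 6 tested members did not pass. Groups did not overlap for 4 members (44.4%), the 3 called ones and PMAIP1, against 65.4% of all tested rows. The share of members called was thus not above that of all genes. The median log2 fold change of the 9 was 0.12, against -0.02 over all tested rows.

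**Figure D1:**
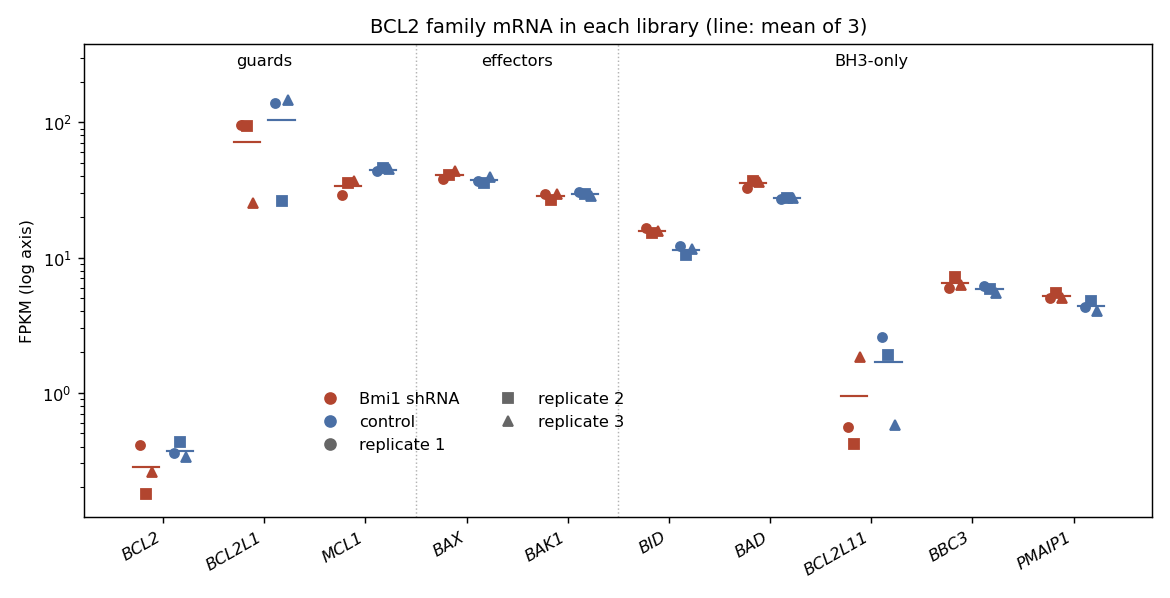
FPKM (log axis) of each member in each library, Bmi1 shRNA in red and to the left of control in blue, with a marker shape per replicate and a line at the mean of 3. MCL1 is lower, and BID, BAD and PMAIP1 are higher, in all 3 Bmi1 shRNA libraries than in any control library, while BCL2L1 and BCL2L11 scatter several-fold inside both groups.

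MCL1 (chr1:150574551-150579738, minus strand; GENCODE 29, GRCh38), a short-lived guard that binds BAK1 and several BH3-only proteins, was the 1 member called lower. It measured 29.1, 35.7 and 37.1 FPKM in Bmi1 shRNA libraries, against 43.7, 45.6 and 44.9 FPKM in control libraries. Every Bmi1 shRNA library lay below every control library, and replicate 1 was the lowest of the Bmi1 shRNA libraries. The mean was 34.0 ± 4.28 FPKM with Bmi1 shRNA and 44.7 ± 0.935 FPKM in control (SD, n = 3 each), that is 76.0% of control. The log2 fold change on the log2(FPKM + 1) scale was -0.39 with a 95% interval from -0.62 to -0.17 (limma, adjusted p = 0.0124). Across all genes the direction of change went with GC content, with a median transcript GC of 42.6% among rows called higher and 55.2% among rows called lower, so values are also given with the trend on GC content and length removed. MCL1 then had a log2 fold change of -0.40 (limma, adjusted p = 0.0145).

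BCL2L1 (chr20:31664452-31723989, minus strand), whose main product BCL-XL is a guard, had the highest mean level of the family and could not be placed. It measured 95.9, 94.7 and 25.5 FPKM in Bmi1 shRNA libraries, against 139, 26.2 and 147 FPKM in control libraries. One library of each group, Bmi1 shRNA replicate 3 and control replicate 2, stood near 26 FPKM, and the other 4 stood near or above 95 FPKM, so the groups overlapped. The highest library was 3.76 times the lowest among Bmi1 shRNA libraries and 5.60 times among control libraries. The log2 fold change was -0.40 with a 95% interval from -2.32 to 1.52 (limma, adjusted p = 0.689), an interval wide enough to hold a large change either way. Its sign turned without Bmi1 shRNA replicate 3 (0.22) and without control replicate 3 (0.02), and it was -1.20 without control replicate 2, none of them called.

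Such spread was rare at this level. Among the 3528 uniquely named rows that averaged 10 FPKM or more, 15 (0.425%) had a highest library at least 3 times the lowest in both groups, and the median of the larger within-group ratio was 1.17. In 2 of these 3528 rows both Bmi1 shRNA replicate 3 and control replicate 2 were under 50% of every other library. That pattern was taken from the BCL2L1 values, so BCL2L1 meets it by choice. One of the 2 rows was BCL2L1 and the other, looked at after its values were seen, was CLDN4, a tight junction claudin on the bile duct marker list. CLDN4 measured 5.67, 5.19 and 0.866 FPKM in Bmi1 shRNA libraries, against 115, 0.687 and 86.4 FPKM in control libraries. ABALON, an RNA annotated antisense to BCL2L1 and overlapping it, did not share the split. It measured 16.4, 12.1 and 11.9 FPKM in Bmi1 shRNA libraries, against 22.5, 21.3 and 22.5 FPKM in control libraries, and it fell (log2 fold change -0.69; limma, adjusted p = 0.00371). No source used here says whether strand was used in counting, so reads of BCL2L1 and ABALON cannot be told apart where they overlap. What sets the BCL2L1 split was not tested.

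BCL2, the founding guard, was barely detected. It measured 0.411, 0.178 and 0.260 FPKM in Bmi1 shRNA libraries, against 0.357, 0.429 and 0.333 FPKM in control libraries. The groups overlapped, and the gene lay under the filter on low values. With no filter its log2 fold change was -0.10 with a 95% interval from -0.29 to 0.09 (limma, adjusted p = 0.448).

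The effectors were measured with little spread and neither passed. BAX measured 37.8, 40.9 and 44.0 FPKM in Bmi1 shRNA libraries, against 37.0, 35.8 and 39.5 FPKM in control libraries. Its groups overlapped, with a log2 fold change of 0.12 and a 95% interval from -0.05 to 0.30 (limma, adjusted p = 0.190). BAK1, the effector that MCL1 is known to hold, measured 29.7, 26.5 and 29.3 FPKM in Bmi1 shRNA libraries, against 30.6, 29.7 and 28.7 FPKM in control libraries. Its groups overlapped too, with a log2 fold change of -0.06 and a 95% interval from -0.21 to 0.09 (limma, adjusted p = 0.460). These intervals leave room for changes up to their bounds, and BAK1 took the opposite sign, 0.13, once the GC content and length trend was removed (limma, adjusted p = 0.161).

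BID and BAD were the BH3-only genes that rose. BID (chr22:17734138-17774770, minus strand), which caspase-8 cleaves to link death receptors to mitochondria, measured 16.5, 15.1 and 15.6 FPKM in Bmi1 shRNA libraries, against 12.2, 10.5 and 11.6 FPKM in control libraries. All 3 Bmi1 shRNA libraries exceeded all control libraries, with means of 15.7 ± 0.700 FPKM with Bmi1 shRNA and 11.4 ± 0.880 FPKM in control (SD, n = 3 each), a ratio of 1.38. The log2 fold change was 0.43 with a 95% interval from 0.26 to 0.60 (limma, adjusted p = 0.00307), and 0.57 with the trend removed (limma, adjusted p = 0.00177). BAD (chr11:64269830-64284704, minus strand), which binds BCL2 and BCL-XL and is kept in the cytosol by 14-3-3 proteins when phosphorylated, measured 32.5, 37.1 and 36.4 FPKM in Bmi1 shRNA libraries, against 27.1, 27.5 and 27.8 FPKM in control libraries. Again the groups did not overlap, with means of 35.3 ± 2.45 FPKM with Bmi1 shRNA and 27.5 ± 0.318 FPKM in control (SD, n = 3 each), a ratio of 1.29. The log2 fold change was 0.35 with a 95% interval from 0.20 to 0.50 (limma, adjusted p = 0.00428). Removal of the trend on GC content and length left a log2 fold change of 0.19 for BAD (limma, adjusted p = 0.0250). BAD overlaps GPR137 on the opposite strand, which measured 3.30 to 3.78 FPKM in Bmi1 shRNA libraries and 3.32 to 4.88 FPKM in control libraries and was not called.

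The promoters of BID and BAD are shown because these are the members that rose together. Each window runs from 250 bases before to 50 after an annotated start (RefSeq, GRCh38.p14), read 5′ to 3′ on the gene's minus strand; capitals mark the GC box GGGCGG on either strand. BID is the first of 5 listed starts, chr22:17774420-17774719, and BAD the first of 2, chr11:64284655-64284954.
BID: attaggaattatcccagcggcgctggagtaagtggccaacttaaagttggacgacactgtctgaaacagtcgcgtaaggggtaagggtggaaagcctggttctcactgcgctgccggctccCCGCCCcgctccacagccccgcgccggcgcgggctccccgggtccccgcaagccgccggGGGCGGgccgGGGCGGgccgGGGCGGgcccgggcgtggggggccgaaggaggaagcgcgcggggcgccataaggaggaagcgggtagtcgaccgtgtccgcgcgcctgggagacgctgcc
BAD: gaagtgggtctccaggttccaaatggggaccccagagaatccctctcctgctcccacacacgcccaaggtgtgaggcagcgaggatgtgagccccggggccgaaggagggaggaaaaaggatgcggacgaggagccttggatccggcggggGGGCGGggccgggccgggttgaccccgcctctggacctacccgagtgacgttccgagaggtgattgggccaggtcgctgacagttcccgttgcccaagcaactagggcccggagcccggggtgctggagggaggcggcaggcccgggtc
BID held 4 matches and BAD 1. A GC box stood in 6 of the 9 members with a listed window, and in 44.6% of 27305 promoters of the same length, so its presence in both does not set them apart. MCL1 had no listed window. The E-box CACGTG, which reads the same on both strands, occurred 4 times in the BAX window and once in that of BBC3, and in 7.43% of all promoters. A TATAAA match was found for BCL2L1 alone among the 9 (12% of all promoters), and CCAAT for 5 of the 9 (35.7%). A match is a run of letters and not a measured binding site.

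PMAIP1, which encodes NOXA, a BH3-only protein that binds MCL1, lay at the threshold. It measured 5.04, 5.43 and 5.04 FPKM in Bmi1 shRNA libraries, against 4.34, 4.77 and 4.04 FPKM in control libraries. The groups did not overlap, and the log2 fold change was 0.20 with a 95% interval from 0.03 to 0.37 (limma, adjusted p = 0.05004, just above the threshold). Its value moved most among the members when the trend on GC content and length was removed, to -0.47, where it was called lower (limma, adjusted p = 0.00380). Its direction is therefore not settled by these values. In that fit, where 39.7% of 10206 rows were called, 2 members were called higher (22.2% of 9, against 19.1% of rows) and 2 lower (22.2%, against 20.6%).

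BBC3, which encodes PUMA, a BH3-only protein that binds all guards, measured 5.92, 7.23 and 6.31 FPKM in Bmi1 shRNA libraries, against 6.11, 5.81 and 5.51 FPKM in control libraries. The groups overlapped, and the log2 fold change of 0.13 had a 95% interval from -0.06 to 0.33 (limma, adjusted p = 0.203). BCL2L11, which encodes BIM, an activator of BAX and BAK1, was low and scattered. It measured 0.561, 0.420 and 1.83 FPKM in Bmi1 shRNA libraries, against 2.58, 1.91 and 0.576 FPKM in control libraries. In each group 1 library, replicate 3, lay among the values of the other group. The log2 fold change was -0.46 with a 95% interval from -1.37 to 0.44 (limma, adjusted p = 0.327). BCL2L11 lies inside the span of MIR4435-2HG on the opposite strand, a long noncoding RNA that measured 0.954 to 1.02 FPKM in Bmi1 shRNA libraries and 0.583 to 0.795 FPKM in control libraries.

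**Figure D2:**
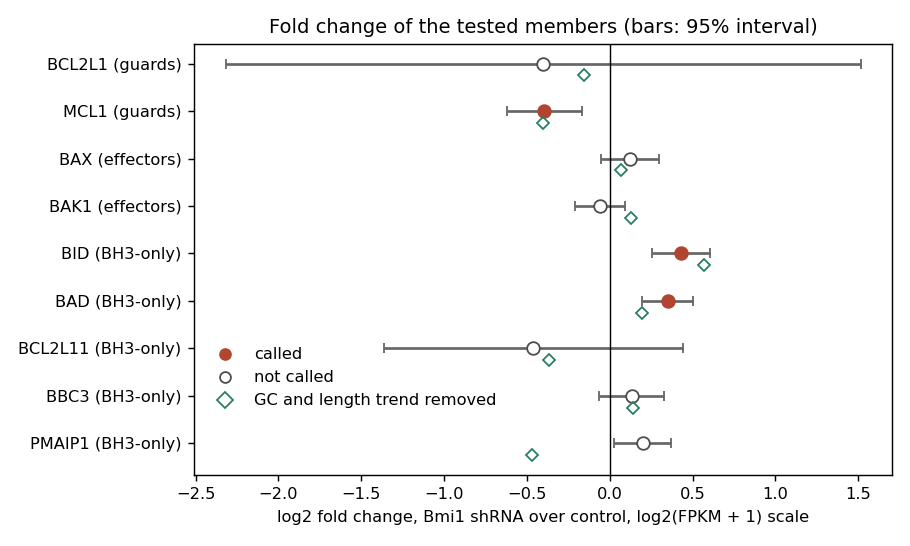
Log2 fold change (Bmi1 shRNA over control, log2(FPKM + 1) scale) of the 9 tested members with its 95% interval, filled where called, and as a diamond after removal of the trend on GC content and length. MCL1 sits at -0.39, BAD at 0.35 and BID at 0.43 with intervals clear of 0, PMAIP1 is at 0.20 as reported and at -0.47 with the trend removed, and BCL2L1 spans -2.32 to 1.52.

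The order of levels within the family differed between the groups around MCL1. In Bmi1 shRNA libraries, leaving BCL2L1 aside for its spread, BAX led at 37.8 to 44.0 FPKM, without overlap with the next. BAD (32.5 to 37.1 FPKM), MCL1 (29.1 to 37.1 FPKM) and BAK1 (26.5 to 29.7 FPKM) followed, MCL1 overlapping both BAD and BAK1. In control libraries MCL1 led at 43.7 to 45.6 FPKM, followed without overlap by BAX, BAK1 at 28.7 to 30.6 FPKM and BAD at 27.1 to 27.8 FPKM. BID, BBC3, PMAIP1, BCL2L11 and BCL2 came next by mean in both groups. None of these 5 overlapped its neighbour in either group, the closest being BCL2L11 and BCL2 in Bmi1 shRNA libraries, at 0.420 FPKM and above against 0.411 FPKM and below. MCL1 stood at 0.769, 0.873 and 0.844 times BAX in Bmi1 shRNA libraries, against 1.18, 1.27 and 1.14 times BAX in control libraries.

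The balance of the classes was described by summing FPKM within each class and library, with no test. The trend on GC content and length was left in these sums and in the order of levels above. Among BH3-only genes its removal took the log2 fold change of BAD from 0.35 to 0.19. BID went from 0.43 to 0.57 and PMAIP1 from 0.20 to -0.47, while BBC3 and BCL2L11 kept their sign. The balance with the trend removed was not tested. Guards summed to 125, 131 and 62.9 FPKM in Bmi1 shRNA libraries, against 184, 72.2 and 192 FPKM in control libraries. BCL2L1 made up 40.5% to 76.5% of that sum in Bmi1 shRNA libraries and 36.3% to 76.5% in control libraries, so the groups overlapped with its split. Effectors summed to 67.5, 67.4 and 73.3 FPKM in Bmi1 shRNA libraries, against 67.6, 65.6 and 68.2 FPKM in control libraries. BH3-only genes summed to 60.5, 65.3 and 65.2 FPKM in Bmi1 shRNA libraries, against 52.4, 50.5 and 49.5 FPKM in control libraries, without overlap, and BAD alone gave most of either sum. Per effector FPKM, BH3-only genes stood at 0.918 ± 0.0437 with Bmi1 shRNA and 0.757 ± 0.0267 in control (SD, n = 3 each).

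Guards per effector were 1.86, 1.94 and 0.858 in Bmi1 shRNA libraries, against 2.71, 1.10 and 2.82 in control libraries, and so overlapped. With BCL2L1 left out, a step chosen after its values were seen, the guards are in effect MCL1. They then stood at 0.437, 0.533 and 0.510 per effector in Bmi1 shRNA libraries, against 0.652, 0.701 and 0.663 in control libraries. Per BH3-only FPKM they stood at 0.488, 0.550 and 0.573 in Bmi1 shRNA libraries, against 0.842, 0.911 and 0.914 in control libraries. Neither ratio overlapped between groups. The mRNA of BCL2L1, the guard with the highest mean, was not placed by these data, so the balance over all guards was not resolved at this spread.

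**Figure D3:**
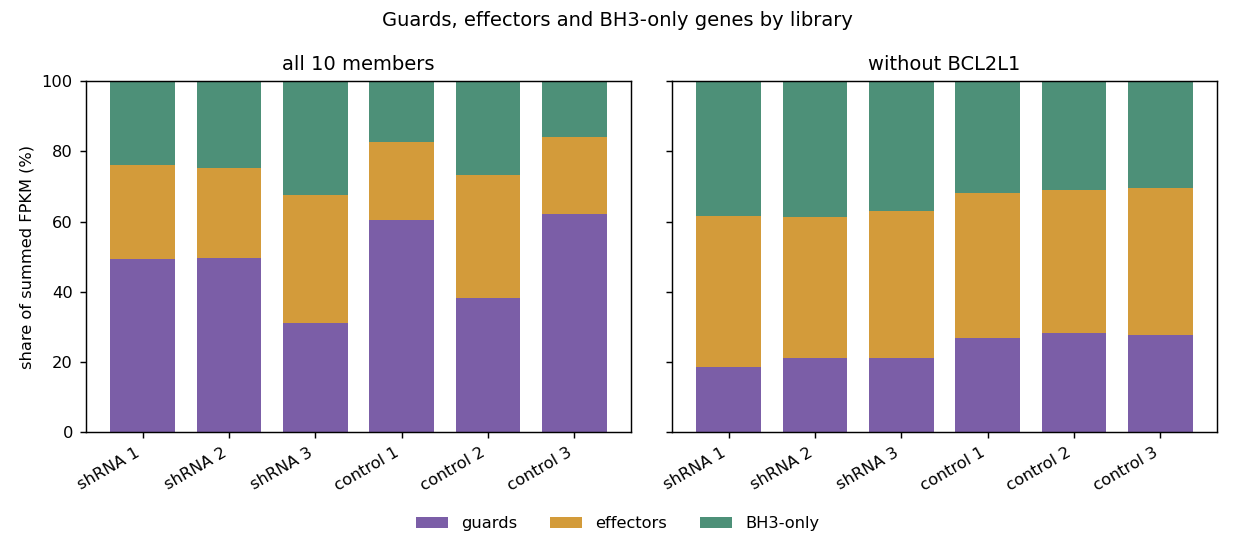
Share of summed FPKM (%) held by guards, effectors and BH3-only genes in each library, Bmi1 shRNA to the left of control, with all 10 members and without BCL2L1. With all members the guards hold 31.2% to 49.6% in Bmi1 shRNA libraries and 38.4% to 62% in control libraries, and without BCL2L1 they hold 18.7% to 21.3% in Bmi1 shRNA libraries and 26.9% to 28.4% in control libraries.

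Other genes of the pathway, taken as whole lists, are given as counts. In the fit on group alone the all-gene shares were 28.6% called higher and 28.5% called lower. With the trend on GC content and length removed they were 19.1% and 20.6% of 10206 rows. Scaling to one total gave 2649 of 11016 rows higher and 3708 lower, and quantile normalization 2899 and 3418. With no filter on low values 3439 rows were higher and 2942 lower, out of more rows tested. Of 14 other BCL2 family genes 8 were tested, of which 1 rose, 1 fell and 6 did not pass (median log2 fold change -0.11), and 2 were higher and 2 lower after removal of the trend. BNIP3L, a mitophagy receptor, rose to 3.56 ± 0.277 FPKM with Bmi1 shRNA, against 2.06 ± 0.200 FPKM in control (SD, n = 3 each; limma, adjusted p = 0.00152), but was not called with the trend removed (log2 fold change 0.16; limma, adjusted p = 0.162). BECN1, an autophagy protein with a BH3 motif, fell to 5.47 ± 0.427 FPKM with Bmi1 shRNA, against 6.52 ± 0.0481 FPKM in control (limma, adjusted p = 0.0278). That call was lost when any of control replicates 1, 2 and 3 or Bmi1 shRNA replicates 1 and 2 was left out (limma, adjusted p from 0.0631 to 0.0840). The effector-like BOK, at 23.1 to 24.7 FPKM in Bmi1 shRNA libraries and 23.4 to 23.8 FPKM in control libraries, was not called (log2 fold change 0.03; limma, adjusted p = 0.595) but was called higher with the trend removed (0.24; limma, adjusted p = 0.0132). It was named after its values were seen.

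Of 13 tested genes on the list of mitochondrial apoptosis downstream of BAX and BAK1, 6 rose, 2 fell and 5 did not pass, with a median log2 fold change of 0.22. After removal of the trend 5 were higher and 2 lower. CYCS, which encodes cytochrome c, measured 39.9, 50.1 and 45.0 FPKM in Bmi1 shRNA libraries, against 22.9, 23.8 and 23.9 FPKM in control libraries (log2 fold change 0.90; limma, adjusted p = 0.000523). VDAC3, a channel of the outer mitochondrial membrane, measured 8.39, 9.14 and 7.05 FPKM in Bmi1 shRNA libraries, against 2.31, 3.12 and 2.73 FPKM in control libraries (a ratio of 3.01; limma, adjusted p = 0.000443). ENDOG, a mitochondrial nuclease, had a log2 fold change of 0.38 (limma, adjusted p = 0.00291). All 3 stayed called with the trend removed, at 0.66 for CYCS, 0.78 for VDAC3 and 0.21 for ENDOG. VDAC1 and VDAC2, named after their values were seen, were not called (limma, adjusted p = 0.1625 and 0.105). VDAC1 measured 42.5 to 47.6 FPKM in Bmi1 shRNA libraries and 46.9 to 51.3 FPKM in control libraries. VDAC2 measured 29.8 to 33.5 FPKM in Bmi1 shRNA libraries and 31.5 to 41.0 FPKM in control libraries. With the trend removed both were called lower, at -0.21 for VDAC1 and -0.53 for VDAC2 (limma, adjusted p = 0.0387 and 0.015). Reads of CYCS and VDAC3 can be shared with processed pseudogenes, so their values are uncertain to that extent. With libraries scaled to one total the list held 4 higher and 4 lower. Leaving out 1 library gave 4 to 6 higher and 1 to 2 lower, with 4 higher and 1 lower when control replicate 2, control replicate 3 or Bmi1 shRNA replicate 1 was omitted, and 5 higher and 1 lower when Bmi1 shRNA replicate 2 was.

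Of 6 genes for inhibitor of apoptosis proteins, which restrain caspases, 4 were tested, of which 3 rose and 1 did not pass (median log2 fold change 0.33). The one that did not pass was BIRC7, at 0.930, 1.35 and 1.11 FPKM in Bmi1 shRNA libraries, against 1.42, 1.47 and 1.35 FPKM in control libraries (log2 fold change -0.19; limma, adjusted p = 0.110), named after its values were seen. After removal of the trend the list held 3 higher and 1 lower, BIRC7 at -0.27 (limma, adjusted p = 0.0317), and without Bmi1 shRNA replicate 2 also 3 higher and 1 lower. With no filter, 2 of the 6 were called higher and none lower. BIRC2, which encodes cIAP1, measured 4.14, 3.26 and 3.30 FPKM in Bmi1 shRNA libraries, against 1.34, 1.48 and 1.33 FPKM in control libraries (log2 fold change 0.93; limma, adjusted p = 0.000523). BIRC5, which encodes survivin, a protein of mitotic cells too, averaged 11.0 ± 0.902 FPKM with Bmi1 shRNA and 8.23 ± 0.271 FPKM in control (SD, n = 3 each; limma, adjusted p = 0.00513). BIRC6 averaged 1.52 ± 0.204 FPKM with Bmi1 shRNA and 1.06 ± 0.119 FPKM in control (limma, adjusted p = 0.0270). Its call ended without Bmi1 shRNA replicate 1 or 3 or control replicate 1 or 3 (adjusted p up to 0.0798), and with scaling to one total (0.0606), quantile normalization (0.0558) or no filter (0.0717).

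Of 8 tested genes of the death receptor pathway 5 fell, 1 rose and 2 did not pass, with a median log2 fold change of -0.29. That split rested on the filter: with none, 4 of 13 were called lower and 3 higher, with a median of -0.09. Among the genes under the filter, TNFSF10, which encodes the ligand TRAIL, averaged 1.21 ± 0.0428 FPKM with Bmi1 shRNA and 0.670 ± 0.00565 FPKM in control (SD, n = 3 each). FAS, a death receptor, averaged 0.793 ± 0.0855 FPKM with Bmi1 shRNA and 0.476 ± 0.0476 FPKM in control (SD, n = 3 each). Neither gene overlapped between groups, and both were named after their values were seen. TNFRSF10B, which encodes the TRAIL receptor DR5, measured 8.57, 7.88 and 8.78 FPKM in Bmi1 shRNA libraries, against 13.2, 13.2 and 14.0 FPKM in control libraries (log2 fold change -0.62; limma, adjusted p = 0.000559). TNFRSF10A, the TRAIL receptor DR4, measured 2.57, 1.81 and 2.48 FPKM in Bmi1 shRNA libraries, against 4.63, 4.68 and 4.45 FPKM in control libraries (log2 fold change -0.77; limma, adjusted p = 0.00130). TNFRSF10D, a decoy TRAIL receptor, also fell (log2 fold change -0.43; limma, adjusted p = 0.00405), and TRADD, an adaptor of TNF receptor 1, rose (0.23; limma, adjusted p = 0.0101). TRADD was not called with libraries scaled to one total (limma, adjusted p = 0.0654). With the trend removed the list held 1 higher and 3 lower, the 3 TRAIL receptors at -0.37 for TNFRSF10B, -0.60 for TNFRSF10A and -0.33 for TNFRSF10D. CASP8, the protease that cuts BID, named after its values were seen, was 4.79, 4.41 and 4.47 FPKM in Bmi1 shRNA libraries, against 3.86, 4.43 and 3.85 FPKM in control libraries, and was not called (limma, adjusted p = 0.128).

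Among 7 tested transcription factors known to induce BH3-only genes in some settings, none rose, 2 fell and 5 did not pass, with a median log2 fold change of -0.14. Scaling to one total or quantile normalization gave 4 lower. JUN, an AP-1 subunit, measured 21.7, 21.3 and 22.1 FPKM in Bmi1 shRNA libraries, against 41.2, 46.8 and 43.3 FPKM in control libraries (log2 fold change -0.98; limma, adjusted p = 0.000247). After the trend was removed JUN stood at -0.68 (limma, adjusted p = 0.000562) and was the 1 gene of the list called lower. Leaving out control replicate 2 or control replicate 3 also gave 1 lower, and leaving out Bmi1 shRNA replicate 3 gave 1 higher and 3 lower.

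Proteins that handle BCL2 family members, such as 14-3-3 proteins, ubiquitin enzymes and dynein light chains, went both ways. Of 13 tested genes 3 rose, 4 fell and 6 did not pass, with a median log2 fold change of -0.03. Removal of the trend gave 1 higher and 3 lower, and either scaling to one total or quantile normalization gave 2 higher and 5 lower. YWHAG and SFN, both 14-3-3 genes, fell. YWHAG averaged 87.9 ± 4.25 FPKM with Bmi1 shRNA and 121 ± 0.605 FPKM in control (SD, n = 3 each; limma, adjusted p = 0.000817), and SFN 67.9 ± 4.45 FPKM with Bmi1 shRNA and 88.2 ± 3.52 FPKM in control (limma, adjusted p = 0.00366). YWHAQ, a further 14-3-3 gene, rose to 150 ± 2.30 FPKM with Bmi1 shRNA, against 120 ± 5.02 FPKM in control (limma, adjusted p = 0.00236), but was not called with the trend removed (log2 fold change 0.06; limma, adjusted p = 0.250). DYNLL1, a dynein light chain that tethers BCL2L11 protein, rose to 101 ± 4.54 FPKM with Bmi1 shRNA, against 70.0 ± 3.94 FPKM in control (log2 fold change 0.52; limma, adjusted p = 0.00103), and stayed called at 0.44 with the trend removed. The dynein light chain DYNLL2, named after its values were seen, fell to a mean of 34.5 FPKM with Bmi1 shRNA, against 40.4 FPKM in control (limma, adjusted p = 0.0314). With the trend removed DYNLL2 was not called (limma, adjusted p = 0.688).

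**Figure D4:**
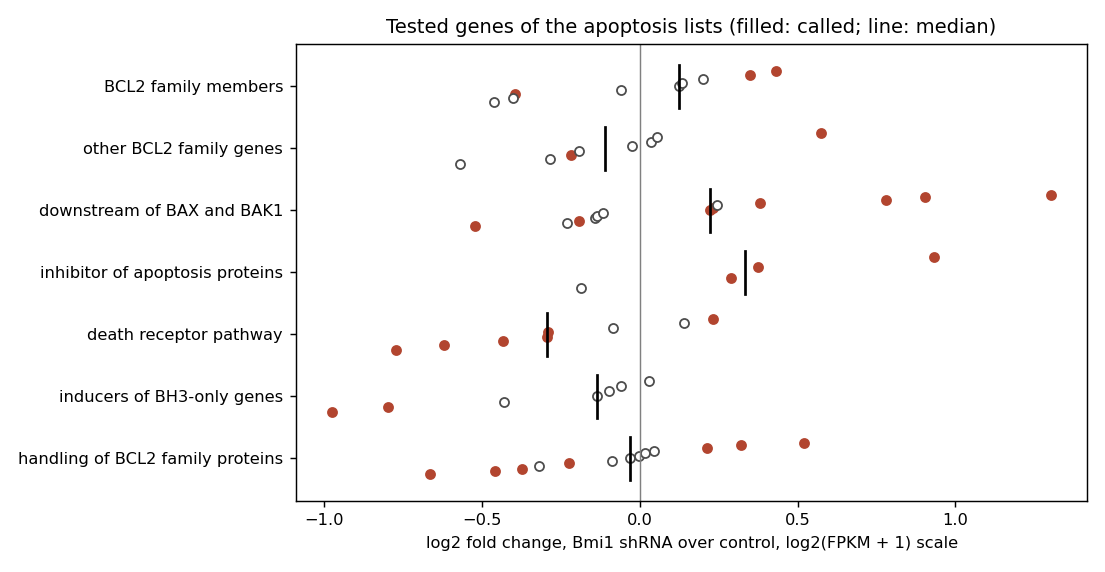
Log2 fold change (Bmi1 shRNA over control, log2(FPKM + 1) scale) of each tested gene in the BCL2 family and the 6 apoptosis lists, filled where called, with a line at each list's median. The medians lie at 0.12 for the family, 0.22 for genes downstream of BAX and BAK1, 0.33 for inhibitors of apoptosis and -0.29 for the death receptor pathway.

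BID, the called member with the largest log2 fold change, was also compared with the other uniquely named tested rows by Pearson's r of log2(FPKM + 1) over the 6 libraries. The 3 most alike were RPL10P16 (r = 0.998), AL136454 (0.998) and AC090204 (0.996). These correlations are descriptions over 6 libraries that share the group difference, and 774 of the 10558 rows compared exceeded 0.95. RPL10P16 is a pseudogene that can share reads with RPL10, so its level of 752 to 831 FPKM in Bmi1 shRNA libraries and 496 to 608 FPKM in control libraries is uncertain.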

How the data were processed

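Poly(A) RNA of QBC-939 cells, 3 Bmi1 shRNA and 3 control libraries taken at 48 h, was given as one table of FPKM values deposited by the authors. Columns named Sh and Sc were read as Bmi1 shRNA and scrambled control with the replicate numbers of the sample titles. The tools named in the submitters' processing notes are StringTie 1.3.0, HISAT2 2.0 and Bowtie 0.12.2, whose roles are not stated, and the build is named mm8, a mouse build, though the organism is human and 19870 of 27238 row names match human gene symbols. The labels' extraction protocol speaks of adipose RNA, at odds with the cell line. Reads could not be recovered from the FPKM steps (of rows under 0.3 FPKM in control replicate 1, at most 1.69% had the same ratio to another library), so the depth is unknown and no count test was run. No counting interval is given.

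The 11016 rows averaging 1 FPKM or more entered a limma fit (version 3.58.1, R 4.3.3) of log2(FPKM + 1) on group alone, using eBayes with a variance trend. The call is a Benjamini-Hochberg adjusted p under 0.05 over all tested rows. Fold changes on this scale understate those of low genes. GC content and length came from the longest protein-coding GENCODE 29 transcript of each symbol, or its longest transcript where none codes, and the trend was removed by regressing library deviations on natural splines with 5 degrees of freedom each, for the 10206 tested rows with a value. This also removes true change that follows GC content or length. In simulated data on 11016 genes 49% of changes of 0.5 and 86% of changes of 1 (log2) were called. Only a small part of those genes was changed, whereas 57.1% of tested rows were called in the data. With few changes the adjusted p is stricter, so these shares are not the sensitivity of this comparison. Nothing beyond the word independent in the design text says how far the libraries are separate. P-values set the group difference against the spread within groups, moderated across rows by eBayes, and hold for these libraries only.

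Members and gene lists were chosen with earlier results of these data known. Text names all members, BMI1, up to 4 called genes with the smallest p per list, and the 3 rows most like the called member of largest fold change; others are marked. Some genes that this rule would name are not reported here. Alternatives covered pseudocount, filter, scaling, variance trend, GC content, replicate block and each library left out. Promoters came from RefSeq (GRCh38.p14), 9 of 10 members matched.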

Additional observations from a re-analysis of the deposited data

How the results depend on the processing

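MCL1 and BID kept their direction and call under all 16 alternatives run, with log2 fold changes from -0.49 to -0.29 and from 0.36 to 0.57. BAD did under 15 of 16. BAX and BBC3 (16 alternatives) and BCL2L11 (15) were called under none. The number of rows called was 3478 with a mean of at least 5 FPKM, where fewer rows are tested, 4053 after removing the trend on GC content and length, and 3144 with that removal and the replicate block. The members called lower numbered 2 with the trend removed, with or without the block, and those called higher 1 with both. With both, BAD was at 0.19 and not called (limma, adjusted p = 0.0648), ENDOG was not called (0.0540), PMAIP1 at -0.47 and called, as without the block, and BAK1 at 0.13, as without the block and not called. The cause was not tested. PMAIP1 was called higher under 5 alternatives: pseudocount 0.1, upper quartile scaling, quantile normalization, eBayes without trend, and without control replicate 2 (adjusted p from 0.0289 to 0.0488).

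Leaving out each library in turn gave 5226 to 6122 rows called, 2 to 3 members higher and 1 lower. BMI1 ranged from -1.58 to -1.22 and BCL2L1 from -1.20 to 0.22. The difference in log2 guards over effectors, -0.48 over all libraries, ranged from -0.93 to -0.10, and guards over BH3-only genes, -0.76, from -1.22 to -0.40. The within-group SD of these log2 ratios over all libraries was 0.717 and 0.713, so the groups were not set apart. Without BCL2L1, a step chosen after its values were seen, the differences were -0.45 and -0.73 (within-group SD 0.113 and 0.0981).

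No shared deviation by replicate number was seen: deviations of same-numbered libraries correlated at 0.00374, -0.0791 and -0.0234 across genes. Whether libraries were handled in pairs cannot be told from these values. Differently numbered libraries correlated at -0.0757 to 0.0998. The highest was Bmi1 shRNA replicate 3 with control replicate 2, the libraries low in BCL2L1 and CLDN4, and its meaning was not tested. The replicate block called 5658 rows, with 2 members higher and 1 lower, and BMI1 at -1.37 (limma, adjusted p = 0.00496). It ended the calls of BECN1 (0.0591) and BIRC6 (0.0715). Depth is unknown, so what it limits for BCL2 and BCL2L11 cannot be stated.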
